A study of Mus musculus with 4 samples.

Results

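The genes examined here encode the proton pump and the potassium channels of the acid-secreting canaliculus of gastric parietal cells, together with the chloride channel protein CLIC6. They are the 9 genes *Atp4a*, *Atp4b*, *Kcnq1*, *Kcne2*, *Kcne3*, *Kcnj15*, *Kcnj16*, *Kcnj10* and *Clic6*, chosen by name among the 46095 gene rows of a table of raw read counts from mouse stomach. The table compares stomachs of 12-week-old WT mice (replicates 1 and 2) with those of Atp4b-cre;MycOE mice (samples titled MYC-KI, replicates 1 and 2), all C57BL/6. In the latter, called *c-Myc* transgenic mice below, Cre recombinase is expressed from the promoter of *Atp4b*, itself 1 of the 9 genes, and switches on a human *c-Myc* transgene in the parietal cell lineage. The transgenic mice carry a floxed *c-Myc* allele on 1 chromosome and *Atp4b-cre*. The WT mice are littermates homozygous for the floxed allele, for which the methods name no Cre.

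Parietal cells secrete hydrochloric acid. Their H,K-ATPase moves protons into the canaliculus in exchange for potassium, and it can run only while potassium leaves the cell again through channels in the same apical membrane. KCNQ1, which stays open in acid when joined to KCNE2, is the best described of these channels, and inward rectifiers of the KCNJ family share the membrane. The catalytic subunit (*Atp4a*) and the glycosylated subunit that carries the pump to the membrane (*Atp4b*) are classical markers of the parietal cell.

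Names and counts in the deposited table are not in the same order for the *c-Myc* transgenic columns, so each transgenic count was first moved to the name that holds its place once all names are sorted by character code. Over the 61 rows around each of the 9 genes, Pearson's r between the genotypes of the mean log2(count + 1), which is across genes and not across replicates, lay between -0.06 and 0.23 as deposited and between 0.889 and 0.973 after the assignment. None of the 9 rows stands at the same place in both orders. In the deposited table the transgenic counts beside *Atp4a* (790 and 1125) are those that the assignment gives to *Atg7*, the zeros beside *Clic6* are those of *Clic1*, and the counts beside *Kcne2* are those of *Kcne3*. Tested in that order, 7 of the 9 names would be called lower, when 41.5% of all genes are called lower and 42.7% higher.

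Total counts lay between 30260305 and 41463647 per sample, so that 3 counts, the limit that a count of 0 allows, correspond to at most 0.0991 CPM (counts per 1000000 counts of the library). The mouse *Myc* row held 1062 and 759 counts in WT samples, against 735 and 1091 in the transgenic ones, and the human transgene has no row of its own. *Xist* had 17846 counts in WT replicate 2 and between 85 and 201 in the other samples, and *Ddx3y*, on the Y chromosome, had 5 in WT replicate 2 and between 1861 and 2623 in the others, so WT replicate 2 differs from the other 3 samples in the sex these genes mark. Sums of marker genes also differed within a genotype. The summed normalized CPM of 8 forestomach squamous markers was 762 in transgenic replicate 1 and 3916 in replicate 2, against 2281 and 1279 in WT, and that of 6 smooth muscle markers was 2479 and 5270, against 7640 and 4827 in WT.

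The promoters are shown first for the 4 genes that fell and have an entry in the RefSeq promoter table of the build GRCm38.p6, the equivalent of the mm10 build that the submitters' processing notes name. Each runs from 250 bases before to 50 bases after an annotated start, 5′ to 3′ on the gene's strand. Capitals mark matches to any of 4 motifs on either strand: the MYC E-box CACGTG, the estrogen-related receptor half-site AAGGTCA, the GATA motif AGATAA and the TATA box TATAAA.
Atp4a, chr7:30711959-30712258, plus strand: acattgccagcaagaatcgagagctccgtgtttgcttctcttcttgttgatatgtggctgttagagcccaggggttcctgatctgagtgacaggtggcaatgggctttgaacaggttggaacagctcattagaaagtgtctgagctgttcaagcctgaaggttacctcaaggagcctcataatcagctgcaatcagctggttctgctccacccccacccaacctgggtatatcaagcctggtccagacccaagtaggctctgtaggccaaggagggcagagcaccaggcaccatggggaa
Kcne2, chr16:92292139-92292438, plus strand, the first of its annotated starts: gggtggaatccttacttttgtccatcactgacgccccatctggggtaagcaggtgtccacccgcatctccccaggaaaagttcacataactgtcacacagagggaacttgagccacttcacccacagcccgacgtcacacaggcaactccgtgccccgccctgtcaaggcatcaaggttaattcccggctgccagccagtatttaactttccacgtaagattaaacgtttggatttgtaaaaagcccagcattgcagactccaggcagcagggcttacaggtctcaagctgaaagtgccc
Kcnj15, chr16:95257308-95257607, plus strand: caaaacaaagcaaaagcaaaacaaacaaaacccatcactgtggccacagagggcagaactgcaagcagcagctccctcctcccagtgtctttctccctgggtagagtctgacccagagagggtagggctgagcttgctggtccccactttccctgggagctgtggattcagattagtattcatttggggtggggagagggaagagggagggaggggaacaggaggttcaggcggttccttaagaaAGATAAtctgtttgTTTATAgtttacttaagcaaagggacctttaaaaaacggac
Kcnj16, chr11:110967783-110968082, plus strand, the first of its annotated starts: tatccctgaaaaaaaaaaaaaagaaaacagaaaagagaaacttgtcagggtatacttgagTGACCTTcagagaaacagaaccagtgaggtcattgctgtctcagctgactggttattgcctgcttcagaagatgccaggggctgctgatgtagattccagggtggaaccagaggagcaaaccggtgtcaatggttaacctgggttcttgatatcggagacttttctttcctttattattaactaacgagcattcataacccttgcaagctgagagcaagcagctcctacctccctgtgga
The table matched 6 of the 9 genes, and *Atp4b*, *Kcnq1* and *Clic6* have no entry. None of the promoters of the 6 matched genes held the E-box, which 7.15% of the 32851 promoters compared hold. The promoters compared have the same length and do not cover every chromosome. The half-site stood at bases -190 to -184 of the first *Kcnj16* start, on the minus strand, and is in 4.72% of the promoters compared. The GATA motif stood at bases -5 to 1 of *Kcnj15* and at -187 to -182 of the third *Kcnj16* start (11.2% of the promoters compared). The TATA box letters stood at bases 10 to 15 of *Kcnj15* on the minus strand and at -133 to -128 of that *Kcnj16* start (13.6%). These are matches of letters only.

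To ask what happened to the acid-secreting machinery in *c-Myc* transgenic stomachs, normalized counts of the 9 genes were fitted by the quasi-likelihood method of edgeR over all 17643 genes that passed its filter on low counts, and all 9 genes passed. Calls required an adjusted p-value below 0.05 together with a change of more than 1.5-fold, or 0.585 on the log2 scale. Of the 9 genes, 7 were called lower in *c-Myc* transgenic mice and 0 higher, against a background of 5.08% of all tested genes called lower and 5.65% called higher. Of all calls 52.6% were higher, and this share was 75.5% with library size alone and 18.8% with *Epcam* and *Cdh1* as the reference, while the 7 calls among the 9 genes held under both. The 7 were both pump subunits, *Kcnq1*, *Kcne2*, *Kcnj15*, *Kcnj16* and *Clic6*. Of the 9, 6 had a log2 fold change below -3, as had 1.18% of all tested genes. DESeq2 called the same 7 genes lower, with 9.21% of all genes called lower and 7.98% higher. Both transgenic samples lay below both WT samples for 8 of the 9 genes, the exception being *Kcne3*, and this was so for 31.5% of all tested genes. The median log2 fold change of the 9 genes was -3.81, beside 0.01 over all tested genes. In whole stomach RNA, fewer parietal cells and less of a transcript per parietal cell cannot be told apart.

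**Figure D1:**
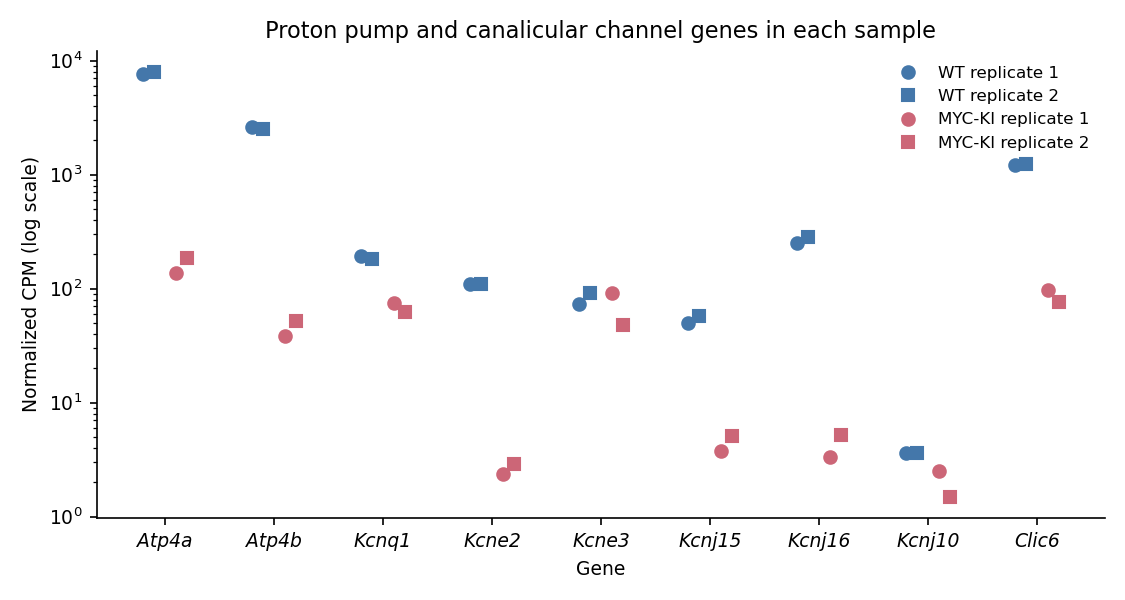
Normalized CPM (log axis) of each of the 9 genes in each sample, with WT in blue and Atp4b-cre;MycOE (MYC-KI) in red, circles for replicate 1 and squares for replicate 2. The WT points of *Atp4a* stand at 7684 and 7949 and its transgenic points at 138 and 187, while the points of *Kcne3* from the 2 genotypes overlap.

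*Atp4a*, the catalytic subunit (chromosome 7, 30712209 to 30725534, plus strand), gave 257861 and 221767 counts in the WT samples and 4696 and 8359 in the transgenic ones. These are 7816 ± 188 normalized CPM (SD, n = 2) and 163 ± 34.4 (SD, n = 2), so that 2.08% of the WT level was left. The log2 fold change was -5.59 ± 0.22 (SE, adjusted p = 0.00884, edgeR). In WT the gene took 0.713% and 0.733% of all counts, and in transgenic mice 0.015% and 0.0202%.

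*Atp4b*, the accompanying subunit (chromosome 8, 13386209 to 13396778, minus strand), gave 87583 and 69469 counts in the WT samples and 1301 and 2310 in the transgenic ones. Its level fell from 2550 ± 84.6 to 45.0 ± 9.44 normalized CPM (SD, n = 2 each), a log2 fold change of -5.82 ± 0.21 (SE, adjusted p = 0.00635, edgeR). Transgenic replicate 2 was the higher of the transgenic samples for both subunits, and neither transgenic sample came near the WT range.

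The subunits fell nearly in step. Each sample had 2.94 (WT replicate 1), 3.19 (WT replicate 2), 3.61 (transgenic replicate 1) and 3.62 (transgenic replicate 2) *Atp4a* counts per *Atp4b* count. This ratio within a sample needs no normalization. It was higher in both transgenic samples, by 0.24 on the log2 scale, which is small beside falls of over 5. The exact permutation test of this difference, two-sided, gave p = 0.333, the smallest value that 2 samples against 2 allow.

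*Kcnq1*, which forms the pore of the apical potassium channel (chromosome 7, 143106877 to 143427050, plus strand), gave 6523 and 5117 counts in the WT samples and 2523 and 2770 in the transgenic ones. It fell from 189 ± 7.75 to 68.2 ± 8.75 normalized CPM (SD, n = 2 each), with a log2 fold change of -1.47 ± 0.12 (SE, adjusted p = 0.0175, edgeR), and 36.1% of the WT level was left. The gene overlaps *Kcnq1ot1*, an antisense non-coding RNA, which gave 396 and 410 counts in the WT samples and 1257 and 1070 in the transgenic ones (log2 fold change 1.2 ± 0.27 SE, adjusted p = 0.0576, edgeR). *Kcnq1ot1* passed both thresholds under DESeq2 (adjusted p = 0.000834), with no filter (0.0134), with library size alone (0.0325) and without transgenic replicate 2 (0.0205). The strand setting of the counting is not given in the sources used here, and without it reads of the pair cannot be told apart.

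*Kcne2*, the ancillary subunit that KCNQ1 joins in parietal cells (chromosome 16, 92292389 to 92298133, plus strand), fell much further. It gave 3661 and 3065 counts in the WT samples and 81 and 130 in the transgenic ones, or 109 ± 0.547 and 2.65 ± 0.369 normalized CPM (SD, n = 2 each). The log2 fold change was -5.36 ± 0.14 (SE, adjusted p = 0.00447, edgeR), and 2.42% of the WT level was left. *Kcnq1* and *Kcne2* stood at 1.78 and 1.67 *Kcnq1* counts per *Kcne2* count in WT and at 31.1 and 21.3 in transgenic mice, so that each transgenic sample held many more *Kcnq1* counts per *Kcne2* count than either WT sample.

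*Kcne3*, another ancillary subunit of KCNQ1, best known from intestinal epithelium (chromosome 7, 100176507 to 100184869, plus strand), did not follow this course. It gave 2444 and 2566 counts in the WT samples and 3114 and 2142 in the transgenic ones, or 82.4 ± 13.5 and 69.9 ± 31 normalized CPM (SD, n = 2 each). The genotypes overlapped, with the highest and nearly equal values in WT replicate 2 and transgenic replicate 1. The log2 fold change was -0.24 ± 0.34 (SE, adjusted p = 0.669, edgeR), and it was -0.78 without transgenic replicate 1 and 0.16 without transgenic replicate 2. There were 2.67 and 1.99 *Kcnq1* counts per *Kcne3* count in WT samples and 0.810 and 1.29 in transgenic ones, the opposite direction to the ratio with *Kcne2*. These ratios with *Kcnq1* were chosen after the values were seen, and their exact permutation p-values, two-sided, were also 0.333.

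**Figure D2:**
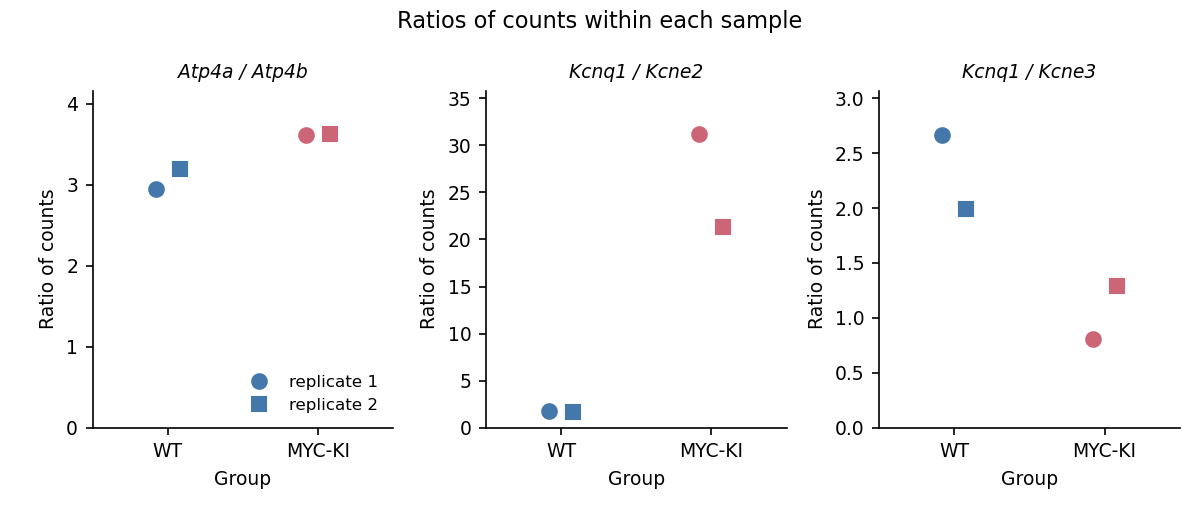
Ratio of counts within each sample (linear axes from 0) for *Atp4a* to *Atp4b*, *Kcnq1* to *Kcne2* and *Kcnq1* to *Kcne3*, with WT in blue, MYC-KI in red, circles for replicate 1 and squares for replicate 2. The ratio of *Kcnq1* to *Kcne2* stands at 1.78 and 1.67 in WT and at 31.1 and 21.3 in the transgenic samples, whereas that of the pump subunits stays between 2.94 and 3.62.

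Among the inward rectifiers, *Kcnj16*, whose product is electrically active when paired with the products of *Kcnj10* or *Kcnj15* (chromosome 11, 110968033 to 111027968, plus strand), showed the deepest fall of the 9 genes. It gave 8392 and 7923 counts in the WT samples and 113 and 232 in the transgenic ones. The level went from 267 ± 24 to 4.26 ± 1.32 normalized CPM (SD, n = 2 each), a log2 fold change of -5.96 ± 0.28 (SE, adjusted p = 0.00975, edgeR).

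*Kcnj15* (chromosome 16, 95257558 to 95300260, plus strand), a rectifier of the parietal cell apical membrane, gave 1662 and 1601 counts in the WT samples and 127 and 226 in the transgenic ones. It fell from 53.5 ± 5.56 to 4.40 ± 0.930 normalized CPM (SD, n = 2 each), a log2 fold change of -3.60 ± 0.21 (SE, adjusted p = 0.0107, edgeR). The genotypes were far apart, although 8.23% of the WT level was left, against 1.60% for *Kcnj16*.

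*Kcnj10* (chromosome 1, 172341210 to 172374085, plus strand), best known for potassium buffering in glia, was scarce throughout, with 121 and 100 counts in WT samples and 86 and 67 in transgenic ones. Both transgenic samples lay below WT, at 2.54 and 1.5 against 3.61 and 3.58 normalized CPM. The log2 fold change of -0.84 ± 0.37 (SE) did not pass the test (adjusted p = 0.200, edgeR). The glial markers *S100b*, *Sox10* and *Gfap* were not called either, with 6.72 ± 2.51 normalized CPM of *Sox10* in WT samples and 3.19 ± 1.47 in transgenic ones (SD, n = 2 each, log2 fold change -1.07, adjusted p = 0.198, edgeR). The part of glia in the *Kcnj10* counts was not tested.

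*Clic6*, which encodes a chloride intracellular channel protein of water-secreting epithelia (chromosome 16, 92498147 to 92541241, plus strand), gave 40700 and 34740 counts in the WT samples and 3317 and 3436 in the transgenic ones. It fell from 1229 ± 23.0 to 87.4 ± 14.8 normalized CPM (SD, n = 2 each), a log2 fold change of -3.81 ± 0.16 (SE, adjusted p = 0.00897, edgeR), and 7.11% of the WT level was left.

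**Figure D3:**
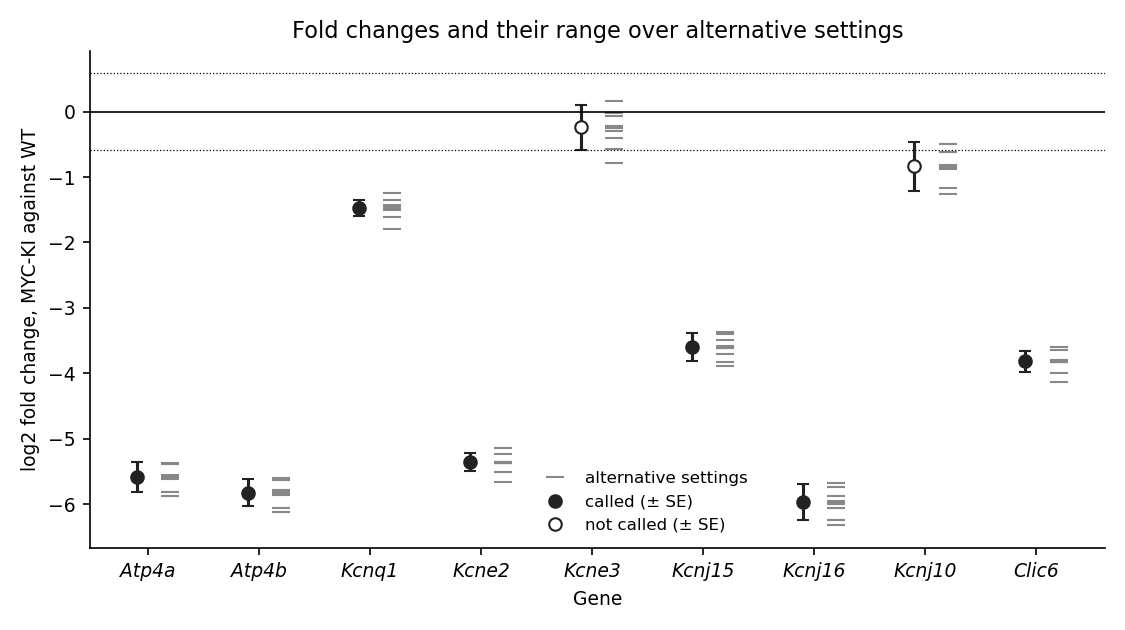
Log2 fold change of each gene (black points, error bars are standard errors, open where not called) and the values under alternative normalizations, filters, designs, DESeq2 and leaving out each sample, all with the assigned order (grey dashes). Dotted lines mark 0.585 in each direction. The falls of the called genes run from -5.96 for *Kcnj16* to -1.47 for *Kcnq1*. The dashes of *Atp4a* overlap with those of *Kcnj16*, *Atp4b* and *Kcne2*, and those of *Clic6* with those of *Kcnj15*. Only *Kcne3* has dashes on both sides of 0.

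With either transgenic sample left out, the same 7 genes were called under edgeR, with folds of -5.82 and -5.38 for *Atp4a*, -5.52 and -5.23 for *Kcne2* and -1.34 and -1.61 for *Kcnq1*. With either WT sample left out, edgeR called 0 of the 9 genes and 0 of all 17643, although 7 of the 9 had an unadjusted p-value under 0.05, as had 3508 and 3384 of all genes. The smallest adjusted p-value was 0.200 without WT replicate 1 and 0.227 without WT replicate 2, and *Atp4a* stood at -5.61 and -5.56, close to -5.59 with all samples. A lone WT sample is there assumed to vary like the transgenic samples.

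Per kilobase of annotated exon (union of exons in GENCODE M21), which allows levels of different genes to be compared, WT stomachs had 2078 ± 49.9 normalized CPM of *Atp4a*, 1690 ± 56.1 of *Atp4b* and 314 ± 5.87 of *Clic6* (SD, n = 2 each). The channels followed with 67.8 ± 6.10 for *Kcnj16*, 62.0 ± 0.310 for *Kcne2*, 46.3 ± 7.61 for *Kcne3*, 46.2 ± 1.89 for *Kcnq1*, 8.47 ± 0.881 for *Kcnj15* and 0.665 ± 0.00275 for *Kcnj10*. In that order only the samples of *Kcne3* and *Kcnq1* overlapped. In *c-Myc* transgenic mice the order changed. *Kcne3*, at 39.3 ± 17.4, overlapped with both *Atp4a* (43.3 ± 9.15) and *Atp4b* (29.8 ± 6.26) at the top, and *Kcne2* (1.5 ± 0.209) and *Kcnj16* (1.08 ± 0.335) came below *Kcnq1* (16.7 ± 2.14). *Kcnj15* (0.697 ± 0.147) and *Kcnj10* (0.373 ± 0.135) stayed last.

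**Figure D4:**
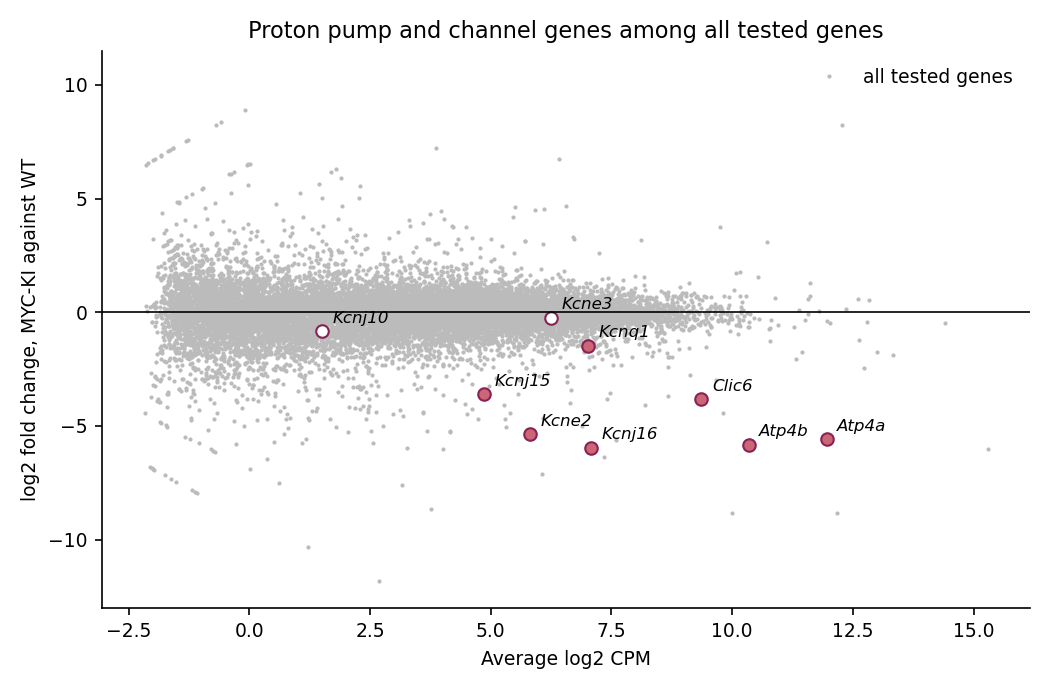
Log2 fold change against average log2 CPM for all 17643 tested genes (grey) and for the 9 genes (red where called, open where not). *Atp4a* and *Atp4b* lie far below the bulk of genes of like abundance, and *Kcne3* lies within the grey cloud.

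The falls of *Kcnj16*, *Atp4b*, *Atp4a* and *Kcne2* ranked 28, 29, 37 and 41 from the lowest among the log2 fold changes of the 17643 tested genes, and 54 genes (0.306%) were below -5. *Clic6* ranked 123, *Kcnj15* 138 and *Kcnq1* 967. The genes nearest to the mean profile of the pump subunits, by Euclidean distance over the 4 samples of log2 normalized CPM after subtraction of the WT mean, were searched among the 6194 tested genes whose average log2 CPM was 5 or more. They were *1810010D01Rik* (distance 0.18, log2 fold change -5.63), *Pgc* (0.42, -6.0), *Kcnj16* (0.44), *Kcne2* (0.51) and *Tmprss9* (0.91, -5.05). *Pgc* encodes pepsinogen C, a product of chief cells. It took 7.52% and 7.07% of all counts in WT samples and 0.113% and 0.154% in transgenic ones. In the same search *Clic6* ranked 15, *Kcnq1* 126 and *Kcne3* 1559. *Kcnj15* and *Kcnj10* had an average log2 CPM below 5 and were not in the search.

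The other genes of acid secretion were described from a list of 33 receptors, transporters and membrane traffic genes. All 33 were tested, 11 were called lower and 0 higher, where 5.08% and 5.65% of all tested genes were, and the median log2 fold change was -0.38. Among the 7 receptors and signalling genes, *Hrh2*, the histamine receptor that drives acid secretion, fell by 5.26 on the log2 scale (SE 0.58, adjusted p = 0.0213, edgeR), from 1138 and 981 counts to 14 and 60. Its log2 fold change was -4.68 without transgenic replicate 1 and -6.37 without transgenic replicate 2. *Sstr2*, a somatostatin receptor (-2.47), and *Cckbr*, the gastrin receptor (-1.76), were also called lower, the latter not without transgenic replicate 1 (adjusted p = 0.0647, edgeR). *Ptger3*, a prostaglandin receptor, had -1.94 and adjusted p = 0.0557 in edgeR but passed under DESeq2 (0.000213), with *Epcam* and *Cdh1* as the reference (0.0370) and with no filter (0.0130), and *Chrm3*, the muscarinic receptor, had -0.38 and adjusted p = 0.301.

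Of 14 other transport genes, 6 were called lower, where 5.08% of all tested genes were. *Aqp4*, the basolateral water channel (-3.86), and the anion transporters *Slc26a9* (-3.81) and *Slc26a7* (-3.38) fell about as far as *Clic6*, and *Slc4a2*, which returns bicarbonate to the blood (-1.80), about as far as *Kcnq1*. The sodium-proton exchangers *Slc9a2* (-1.11) and *Slc9a4* (-0.73) fell less. Of 12 membrane traffic genes, which carry the pump between its vesicles and the canaliculus, 2 were called lower, *Pacsin2* (-0.93) and *Lasp1* (-0.66), and the list's median was -0.33. *Lasp1* lost its call without transgenic replicate 1 (adjusted p = 0.0616, edgeR), without transgenic replicate 2 (0.0510) and with library size alone (0.0554), and *Slc9a4*, at -0.51, fell short of the fold threshold with library size alone. The adjusted p-values of the 11 called genes lay at or below 0.0461. Without WT replicate 1 or WT replicate 2, edgeR called 0 of the 33, with 14 and 13 at an unadjusted p-value under 0.05.

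Relatives of the 9 genes were counted in the same way. Of 32 other members of the KCNQ, KCNE, KCNJ and CLIC families and of the Na,K- and H,K-ATPases, 23 were tested, 3 were called lower (5.08% of all tested genes) and 0 higher (5.65%), with a median log2 fold change of -0.31 (*Atp1b1* is also in the acid secretion list). The called ones were *Kcnq3* (127 and 54 counts in WT, 8 and 18 in *c-Myc* transgenic mice, log2 fold change -3.14), *Kcne1* (185 and 247, 45 and 28, -2.88) and *Kcnj13* (141 and 146, 40 and 48, -2.06). Their number was 1 without transgenic replicate 1, where *Kcnq3* (adjusted p = 0.0756, edgeR) and *Kcnj13* (0.0505) lost the call and *Kcne1* stood at -3.51, and 6 without transgenic replicate 2, and it was 0 without either WT sample, with 4 at an unadjusted p-value under 0.05 in edgeR each time. *Clic1* was listed at 0 in all samples.

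*Atp1b1*, which encodes the relative of the *Atp4b* product in the Na,K-ATPase, had 1037 ± 5.03 normalized CPM in WT and 986 ± 176 in *c-Myc* transgenic mice (SD, n = 2 each). Its log2 fold change was -0.07 (adjusted p = 0.773, edgeR) and turned to 0.15 with library size alone. *Atp12a*, the non-gastric H,K-ATPase, stayed scarce, with 35 and 18 counts in WT samples and 23 and 37 in transgenic ones.

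**Figure D5:**
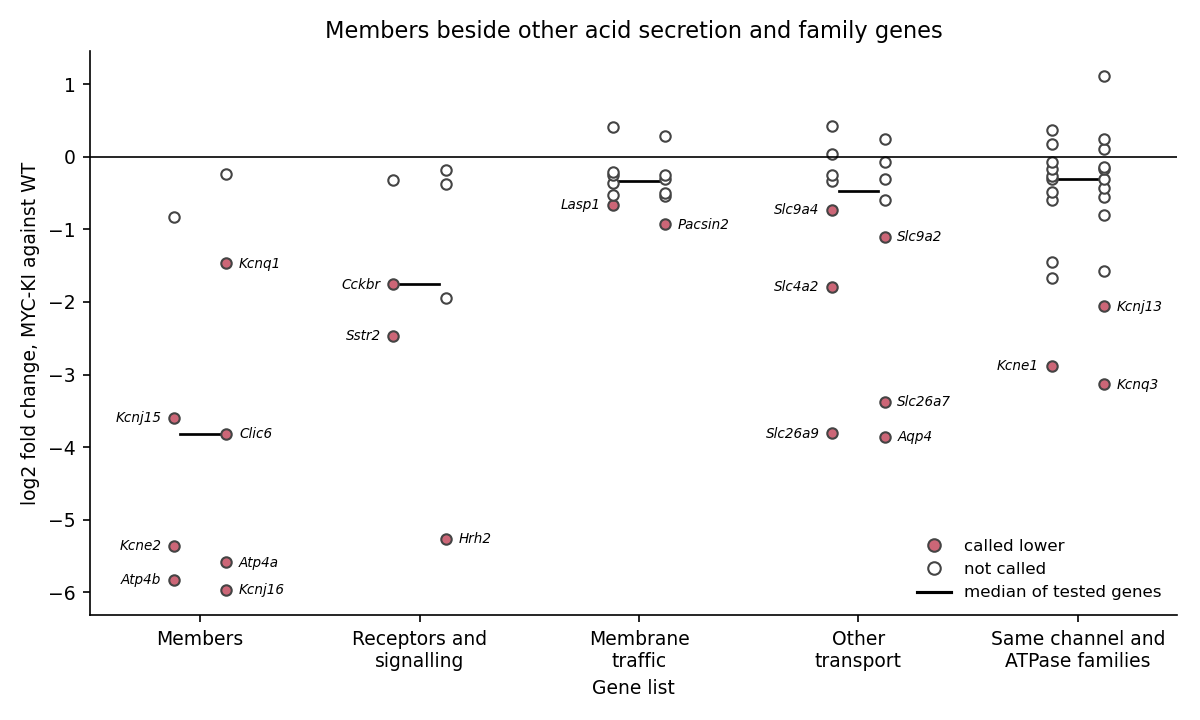
Log2 fold changes of the 9 genes (members), the other acid secretion genes in 3 groups, and other genes of the same channel and ATPase families. Each point is a tested gene, red where called lower and open where not called, and short lines are medians, which lie at -3.81, -1.76, -0.33, -0.47 and -0.31 from left to right.

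Markers of cell types were read beside these values. Of 7 other parietal markers, 6 were called lower, where 5.08% of all tested genes were, with a median log2 fold change of -3.86, and their summed normalized CPM was 925 and 940 in WT samples and 218 and 208 in transgenic ones. They included *Esrrg* (-4.01) and *Esrrb* (-4.40, and -5.03 without transgenic replicate 1), which encode estrogen-related receptors, and the list shares *Hrh2*, *Chrm3*, *Aqp4*, *Slc26a7* and *Slc4a2* with the list above. Of the 4 tested chief cell markers 3 fell (median -3.34), with sums of 82849 and 78449 in WT samples and 1194 and 1514 in transgenic ones, and *Lipf* was listed at 0 in every sample. All 4 surface mucous markers fell (median -1.81), with sums of 44889 and 53560 against 10957 and 17194.

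Lists of mucous neck (2 genes), antral (2), pan-epithelial (4), squamous (8), intestinal (6) and smooth muscle (6) markers had 0 of 28 genes called by edgeR, where 5.08% of all tested genes were called lower and 5.65% higher. Of the 28, 5 had an unadjusted p-value under 0.05, as had 6024 of all 17643 genes, and DESeq2 called *Gast* lower and *Epcam* and *Ivl* higher. Of 6 leukocyte markers 2 were called lower by edgeR. The pan-epithelial sum of *Epcam*, *Cdh1*, *Krt8* and *Krt18* was 5516 and 5911 in WT samples and 6361 and 6434 in transgenic ones. With the summed counts of *Epcam* and *Cdh1* as the library size the same 7 of the 9 genes were called, with log2 fold changes of -5.88 for *Atp4a* and -1.79 for *Kcnq1*. The part of the squamous and muscle sums in these results was not tested.

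The nearest annotated genes on each side of the 9 genes were also compared. Of 18 such genes, 10 were tested, 1 was called lower and 3 were called higher, where 5.08% and 5.65% of all tested genes were. *2200002J24Rik*, 1911 bases before *Atp4a*, gave 334 and 221 counts in the WT samples and 17 and 54 in the transgenic ones (log2 fold change -3.37, and -4.15 without transgenic replicate 2), whereas *Tmem147*, 2167 bases beyond it, rose (0.90). *Tmem147* lost its call with *Epcam* and *Cdh1* as the reference (0.59, adjusted p = 0.0637, edgeR), which leaves 2 neighbours called higher. *Tfdp1*, a partner of E2F transcription factors, lies 7761 bases from *Atp4b* and rose by 1.05, and *Trpm5*, a cation channel of tuft cells, lies 12235 bases from *Kcnq1* and rose by 2.34. *Kcnj2*, the neighbour of *Kcnj16* in the same family, had -0.26 and adjusted p = 0.438.

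*Kcne2* and *Clic6* stand close together on chromosome 16, and the genes between them were looked at after the values were seen. In order from *Kcne2*, *Smim11* had a log2 fold change of -0.07 (adjusted p = 0.784, edgeR), *Kcne1* fell by 2.88 on the log2 scale and *Rcan1*, an inhibitor of calcineurin, fell by 0.78 (adjusted p = 0.0288), short of the fold threshold with library size alone (-0.56). *2410124H12Rik*, 777 bases from *Clic6*, gave 20 and 6 counts in the WT samples and 2 and 0 in the transgenic ones and was below the filter.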

How the data were processed

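Stomach RNA was sequenced in 2 WT and 2 Atp4b-cre;MycOE samples. The authors deposited 1 table of raw counts per gene symbol, and the labels' processing notes name HISAT2 and mm10. The counting tool, annotation and strand setting are not given in the sources used here. The 9 genes and all lists were chosen with earlier results of these data known. The labels do not say whether samples of a genotype come from separate mice. The WT samples do, since they differ in *Xist* and *Ddx3y*, but the transgenic ones may not, and p-values measure only the spread between these samples.

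Counts of the transgenic columns were assigned to the names sorted by character code. The whole table was then fitted in edgeR 4.0.16 (R 4.3.3, filterByExpr, TMM, glmQLFit, glmQLFTest, Benjamini-Hochberg adjustment). Each SE was computed as |log2 fold change| over the root of the F statistic. Depth was 30260305 to 41463647 counts, and counting limits cover counting error only. Named were the 9 genes, called genes of both lists with direct partners, markers, the 5 genes nearest to the pump profile and flanking genes. Alternatives were DESeq2 1.42.0, its size factors, library size, *Epcam* plus *Cdh1* as reference, no filter, at least 10 counts in every sample, a replicate block, the deposited order, other fold thresholds and leaving out each sample. The edgeR fit was tested on simulated data. Promoters, gene coordinates and flanking genes are RefSeq's (GRCm38.p6). Some genes of the lists are not reported here by name.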

Additional observations from a re-analysis of the deposited data

How the results depend on the processing

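All 7 pump and channel genes stayed called under DESeq2, its size factors, library size, *Epcam* plus *Cdh1*, both filters, both fold thresholds, the replicate block and without either transgenic sample, and 7 were also called as deposited, where 41.5% of all 22083 genes were called lower and *Kcne3* took the place of *Kcne2*. Leaving out each sample moved the number called among the 9 genes between 0 and 7, among the other acid secretion genes between 0 and 11, among the family members between 0 and 6 and among all genes between 0 and 2608; each 0 came without a WT sample under edgeR, where 13 or 14 acid secretion genes, 4 family members and 3508 or 3384 genes had an unadjusted p-value under 0.05. Deviations of samples with the same number correlated at r = 0.04 over 15777 genes, so the numbers are not shown to pair the samples. The replicate block called 7 of the 9 genes, 4 acid secretion genes, 0 family members (5 of 23 at an unadjusted p-value under 0.05) and 114 genes in all (5178 of 17643 at an unadjusted p-value under 0.05). It ended the calls of *Hrh2*, *Cckbr*, *Sstr2*, *Lasp1*, *Pacsin2*, *Slc9a2*, *Slc9a4*, *Kcnq3*, *Kcne1*, *Kcnj13*, *2200002J24Rik*, *Tmem147*, *Tfdp1*, *Trpm5*, *Rcan1* and *Esrrb*, with adjusted p-values from 0.0541 (*Hrh2* and *Tfdp1*) to 0.0964 (*Kcnq3*). As deposited these numbers were 29, 24 and 18580, and DESeq2 called 6 family members and 3224 genes in all. Of all genes 1113 passed a log2 fold change above 1 and 3011 passed with library size. The share of higher calls was 52.6%, and it was 75.5% with library size, where the median log2 fold change of all genes was 0.23, and 18.8% with *Epcam* plus *Cdh1*, where it was -0.30. The share was 23.7% of the calls under the replicate block.

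The log2 difference in the pump subunit ratio was -3.21 as deposited and between 0.18 and 0.30 with each sample left out. As deposited the log2 fold change changed sign for *Kcnj10* (0.27), *Sstr2* (0.52), *Slc26a7* (0.15), *Kcnq3* (1.0), *Ptger3* (1.65), *Rcan1* (1.06), *Atp12a* (7.66), *Kcnq1ot1* (-4.58), *Tfdp1* (-6.14) and *Trpm5* (-1.01). With library size it changed sign for *Atp1b1* (0.15), *Atp12a* (0.055) and *Smim11* (0.15). Leaving out transgenic replicate 2 turned *Kcne3* (0.16, the other end of its range being -0.78) and *Atp1b1* (0.099, other end -0.27), leaving out transgenic replicate 1 turned *Smim11* (0.015, other end -0.17), and leaving out WT replicate 1 turned *Atp12a* (0.22, other end -0.47). The causes were not tested.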
